A study of Mus musculus with 2 samples.

Results

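Growth factors of the PDGF, VEGF and angiopoietin families and the PDGF receptors were followed in the somatic cells of foetal mouse gonads. The members were 10 genes listed by name, as growth factors and receptors known from vessel and interstitium formation in the testis: the ligand genes *Pdgfa*, *Pdgfb*, *Pdgfc* and *Pdgfd*, the receptor genes *Pdgfra* and *Pdgfrb*, the VEGF ligand genes *Vegfa* and *Vegfc*, and the angiopoietin genes *Angpt1* and *Angpt2*. Each symbol matched 1 of the 42422 Ensembl identifiers in the count table, and all 10 were among the 15125 genes with enough counts to be tested.

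PDGF ligands are dimeric growth factors that bind a pair of receptor tyrosine kinases, PDGFRα and PDGFRβ. In many tissues PDGFRα is carried by mesenchymal cells and PDGFRβ by pericytes and smooth muscle cells, and in the foetal testis PDGF signalling is known for its part in vessel formation and in expansion of the interstitium, from which foetal Leydig cells arise. VEGFA and VEGFC act on endothelial cells through the receptors encoded by *Kdr*, *Flt1* and *Flt4*, and angiopoietins act through TIE2, the product of *Tek*, with angiopoietin 1 as its activator and angiopoietin 2 as a context-dependent antagonist.

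Gonads with the mesonephros attached were taken at E12.5 from wild type embryos of ASMU Swiss mice crossed with the Oct4(Pou5fl)-eGFP line on a 129svJT2 background, the transgene being present in every group so that germ cells fluoresce. Somatic cells were the GFP-negative fraction, sorted after the mesonephros had been removed, and each library came from a pool of several gonads. The 10 groups of 4 libraries were XX and XY cells before culture (0 h), XX and XY cells after 24 h and after 72 h with the vehicle DMSO, and XY cells after 24 h and after 72 h with 500 nM FGFRi or 500 nM MEKi. FGFRi was BGJ398, which inhibits FGF receptors, and MEKi was PD0325901, which inhibits MEK1/2, the kinases that activate ERK1/2. Whether pools came from separate litters or cultures was not stated, so p-values measure the spread between pools.

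Libraries held between 1380707 and 4836550 counts, with a median of 2248854, and values are given as CPM, a gene's counts scaled to a library of 1000000 counts after TMM adjustment of library sizes. The sums of cell type markers followed the labelled sex: 8 Sertoli cell markers summed to 116 to 246 CPM in XX and to 597 to 2437 CPM in XY libraries, and 6 pre-granulosa markers to 1146 to 1788 CPM in XX and to 92.6 to 269 CPM in XY libraries. Germ cell markers remained at sums of up to 527 CPM (XY, 24 h, MEKi), erythroid markers at up to 9977 CPM (XY, 0 h), and endothelial, pericyte and macrophage markers were present, so the fraction is a mixture of cell types. The libraries were made in 2 pools: 0 h, 24 h DMSO and 24 h MEKi in one, 24 h FGFRi and all 72 h groups in the other. A difference between pools cannot be told apart from time in the DMSO and MEKi groups, or from FGFRi at 24 h.

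RefSeq promoter windows on GRCm38.p6, from 250 bases before to 50 bases after a start site, were at hand for 6 members, *Pdgfa*, *Pdgfc*, *Pdgfd*, *Pdgfra*, *Vegfa* and *Vegfc*, in 8 windows. *Pdgfb*, *Pdgfrb*, *Angpt1* and *Angpt2* had none in the table used. The 250 bases before the start site are shown for the 3 members that illustrate the main patterns below: *Pdgfra*, higher in XY cells at every time, *Pdgfd*, which rose with MEKi at 72 h but not at 24 h, and *Pdgfc*, which was higher in XX cells before culture. All 3 windows are on the plus strand and are written 5′ to 3′, in lower case throughout because neither motif searched occurs in them.
*Pdgfra*, chr5:75152001-75152250: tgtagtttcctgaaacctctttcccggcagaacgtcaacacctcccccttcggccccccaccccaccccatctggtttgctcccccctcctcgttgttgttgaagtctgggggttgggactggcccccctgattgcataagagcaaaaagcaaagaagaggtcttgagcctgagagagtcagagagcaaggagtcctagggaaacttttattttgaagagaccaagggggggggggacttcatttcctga
*Pdgfd*, chr9:6168236-6168485: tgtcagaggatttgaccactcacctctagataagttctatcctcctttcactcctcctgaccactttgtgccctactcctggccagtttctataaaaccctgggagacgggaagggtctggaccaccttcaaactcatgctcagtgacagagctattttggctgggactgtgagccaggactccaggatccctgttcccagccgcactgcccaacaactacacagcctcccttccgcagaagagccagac
*Pdgfc*, chr3:81036166-81036415: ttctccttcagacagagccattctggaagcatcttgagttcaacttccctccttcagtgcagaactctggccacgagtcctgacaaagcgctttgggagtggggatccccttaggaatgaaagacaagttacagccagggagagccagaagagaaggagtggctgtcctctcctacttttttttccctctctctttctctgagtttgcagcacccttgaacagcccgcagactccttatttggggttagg
The motifs were ACGTG, the core of the hypoxia response element, and CCGGAA, a core of ETS factor sites, each looked for on both strands. ACGTG was found once in the 8 windows, in the second *Vegfa* window (chr17:46025114-46025413) on the strand opposite to the gene, and CCGGAA was not found. The other *Vegfa* window (chr17:46032328-46032627), which lies upstream of it on the strand of the gene, held neither motif. The window with ACGTG therefore lies inside the gene, downstream of the other start site. Whether the ACGTG site is used was not tested. Of 32851 promoter windows of the same length, 19.6% held ACGTG and 14.9% held CCGGAA. In the 250 bases shown the GC content was 50.8% for *Pdgfc*, 53.6% for *Pdgfd* and 54.4% for *Pdgfra*.

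The genes lie on 7 chromosomes of GRCm39 (GENCODE annotation): *Pdgfa* (ENSMUSG00000025856.15, chromosome 5, 138961758 to 138983435, minus strand), *Pdgfb* (ENSMUSG00000000489.7, chromosome 15, 79880009 to 79899181, minus strand), *Pdgfc* (ENSMUSG00000028019.9, chromosome 3, 80943668 to 81121473, plus strand), *Pdgfd* (ENSMUSG00000032006.15, chromosome 9, 6168240 to 6379265, plus strand), *Pdgfra* (ENSMUSG00000029231.15, chromosome 5, 75311994 to 75358876, plus strand), *Pdgfrb* (ENSMUSG00000024620.11, chromosome 18), *Vegfa* (ENSMUSG00000023951.17, chromosome 17, 46327919 to 46343309, minus strand), *Vegfc* (ENSMUSG00000031520.6, chromosome 8, 54530257 to 54640131, plus strand), *Angpt1* (ENSMUSG00000022309.9, chromosome 15, 42288058 to 42540417, minus strand) and *Angpt2* (ENSMUSG00000031465.6, chromosome 8, 18739202 to 18791603, minus strand). All are protein-coding. The whole of *Angpt2* lies inside *Mcph1* on the opposite strand, and 8 of the other 9 members, *Pdgfrb* being the exception, overlap at least 1 annotated non-coding RNA gene.

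The members varied over the 10 groups by different amounts. The ratio of the highest to the lowest group mean was 146 for *Angpt2*, 6.38 for *Pdgfra*, 6.19 for *Angpt1*, 5.16 for *Pdgfd*, 4.34 for *Vegfc*, 4.12 for *Pdgfrb*, 3.27 for *Pdgfb*, 2.33 for *Pdgfa*, 2.15 for *Pdgfc* and 1.76 for *Vegfa*. For most genes the groups formed a continuous order: of the 9 steps between neighbouring groups, 4 had no overlap between libraries for *Angpt2*, 1 for each of *Pdgfa*, *Pdgfc*, *Pdgfd*, *Pdgfra* and *Pdgfrb*, and 0 for *Pdgfb*, *Vegfa*, *Vegfc* and *Angpt1*.

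**Figure D1:**
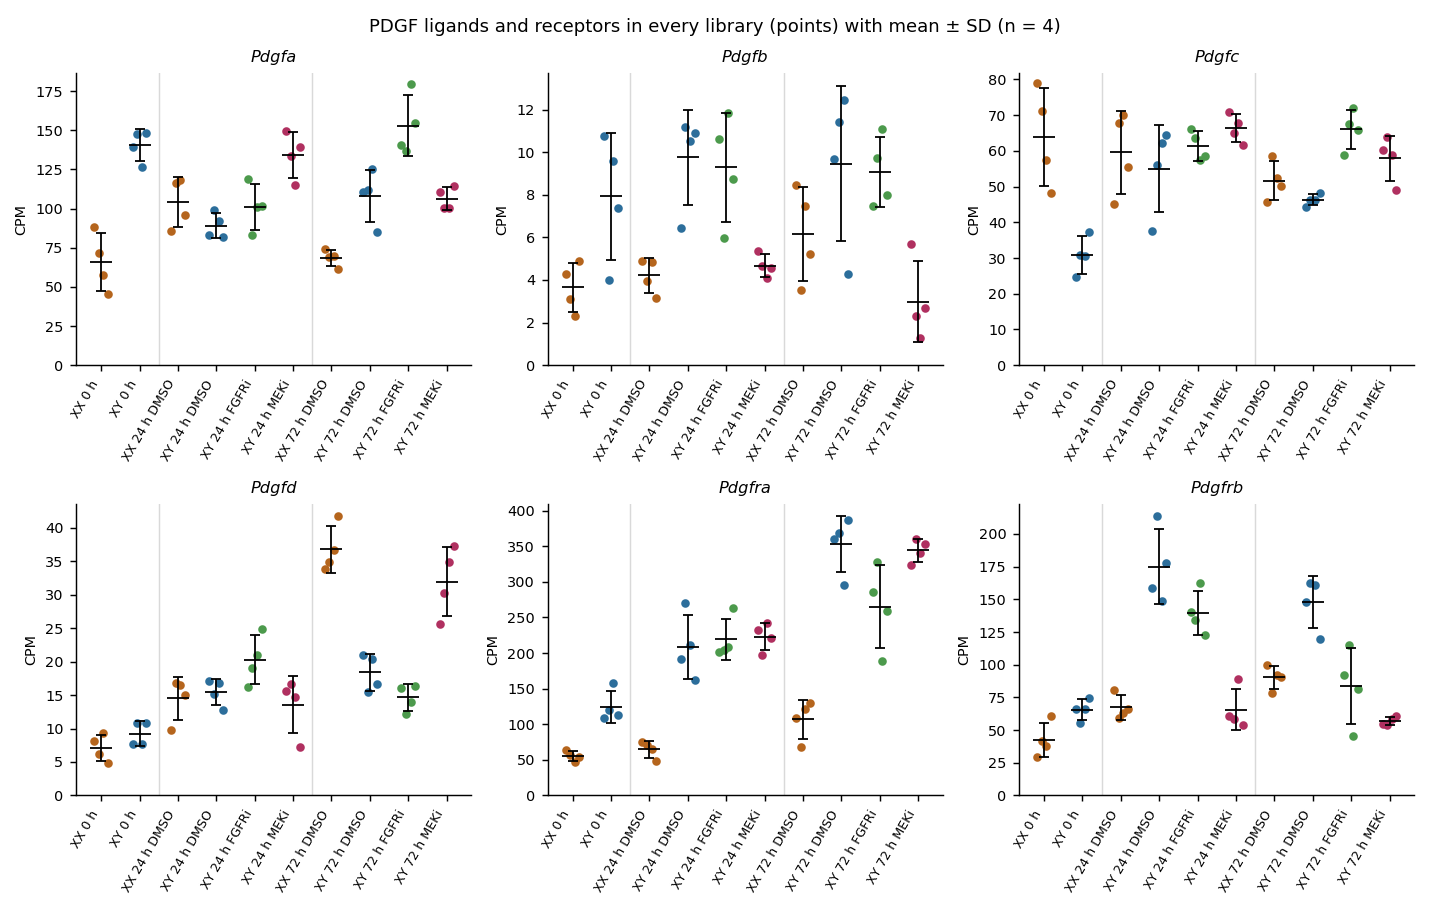
CPM of the 4 PDGF ligand genes and the 2 PDGF receptor genes (y axes, starting at 0) in each of the 10 groups (x axes), with a point for every library and a tick and bar for mean and SD (n = 4). *Pdgfra* was higher in XY than in XX libraries at each time, and *Pdgfrb* in the 24 h and 72 h MEKi libraries lay between 54.2 and 89.1 CPM, below all XY DMSO libraries of the same time (119 to 214 CPM).

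A gene was called different when its Benjamini-Hochberg adjusted p (FDR) over all 15125 genes was below 0.05 and its fold change at least 1.5 in edgeR's quasi-likelihood test. The calls that also passed voom with quality weights and treat, a test against the 1.5-fold limit itself that the study used, were those of *Pdgfa* and *Pdgfra* between the sexes at 0 h, *Pdgfra* and *Pdgfrb* at 24 h and *Pdgfra* at 72 h, of *Pdgfrb* and *Angpt2* on the first day in XY cells, of *Pdgfrb* with MEKi at both times, and of *Pdgfa* for the change in the sex difference on the first day. Counts called among the members, the cell type markers and the other gene lists are read against the percentage of all tested genes called in the same comparison. These counts are a description, because the members and lists were chosen with earlier results of these data known. In these bulk samples, fewer cells of a type and less RNA per cell cannot be told apart.

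XX and XY somatic cells differed in PDGF receptor and ligand transcripts at every time. Before culture 6 of the 10 members were called (17.3% of all tested genes): *Pdgfa*, *Pdgfb*, *Pdgfra*, *Pdgfrb* and *Angpt1* were higher in XY cells and *Pdgfc* higher in XX cells. After 24 h with DMSO 5 of 10 were called (19.6% of all tested genes), all higher in XY cells: *Pdgfb*, *Pdgfra*, *Pdgfrb*, *Angpt1* and *Angpt2*. After 72 h 6 of 10 were called (20.3% of all tested genes): *Pdgfa*, *Pdgfra*, *Pdgfrb*, *Vegfa* and *Angpt2* were higher in XY cells and *Pdgfd* higher in XX cells. The median log2 fold change of the members, XX over XY, was −0.57, −1.14 and −0.63 at 0 h, 24 h and 72 h, beside −0.01 over all tested genes at each time. The difference between XX and XY changed from 0 h to 24 h for 2 members, *Pdgfa* and *Pdgfc* (6.20% of all tested genes), and from 24 h to 72 h for 2, *Pdgfa* and *Pdgfd* (2.04% of all tested genes).

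Between 0 h and 24 h with DMSO, called the first day here, 7 members differed in XY cells (14.4% of all tested genes): *Pdgfc*, *Pdgfd*, *Pdgfra*, *Pdgfrb*, *Vegfc* and *Angpt2* rose and *Pdgfa* fell. The 0 h cells were uncultured and no later group was, so development over this time, culture and DMSO cannot be told apart. The median log2 fold change of the members was 0.75 beside 0.03 over all tested genes. In XX cells 4 members were called, all rising (7.73% of all tested genes): *Pdgfa*, *Pdgfd*, *Pdgfrb* and *Angpt2*. Cell type markers moved on the same day. In XY cells all 5 erythroid markers fell, with sums of 8044 to 9977 CPM at 0 h and 1459 to 4665 CPM at 24 h, as did 6 of 8 Sertoli cell markers, while 5 of 6 tested arterial, 4 of 6 pericyte and 4 of 5 foetal Leydig cell markers rose, as did 3 of 8 interstitial progenitor markers. Of the 12 endothelial markers 1 fell and none rose. Of the 6 macrophage markers tested 2 fell, and of the 6 pre-granulosa markers 4 rose and 1 fell. In XX cells all 5 erythroid markers fell, with sums of 5076 to 9158 and 607 to 1244 CPM, 2 arterial, 2 pericyte and 2 foetal Leydig cell markers rose, and 1 pericyte and 1 foetal Leydig cell marker fell. There 2 of the 12 endothelial markers fell and none rose, and 1 pre-granulosa marker rose and 1 fell. Of the 6 macrophage markers 4 fell in XX cells, with sums of 45.7 to 67.2 CPM at 0 h and 16.1 to 22.1 CPM at 24 h. The part of these cell types in the members' first-day differences was not tested.

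MEKi lowered 3 members at 24 h (3.27% of all tested genes), *Pdgfrb*, *Vegfc* and *Angpt1*, with a median over the members of −0.27 beside −0.01 over all tested genes. At 72 h 4 members were called (6.47% of all tested genes): *Pdgfb* and *Pdgfrb* fell, and *Pdgfd* and *Angpt2* rose, and the median was −0.03 beside 0.00. The response to MEKi differed between 24 h and 72 h for 2 members, *Angpt1* and *Angpt2* (1.41% of all tested genes). FGFRi lowered 1 member at 72 h, *Pdgfrb* (1.80% of all tested genes). The MEKi and FGFRi comparisons at 72 h share their 4 DMSO libraries. Compared directly at 72 h, MEKi and FGFRi differed for 3 members (6.43% of all tested genes): *Pdgfb* was lower and *Pdgfd* and *Angpt1* were higher with MEKi. FGFRi at 24 h, set against DMSO libraries of the other pool, differed for 1 member, *Angpt2* (3.27% of all tested genes). Between 24 h and 72 h of FGFRi, which are in the same pool, 3 members were called (6.70% of all tested genes): *Pdgfa* and *Angpt2* rose and *Pdgfrb* fell.

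**Figure D2:**
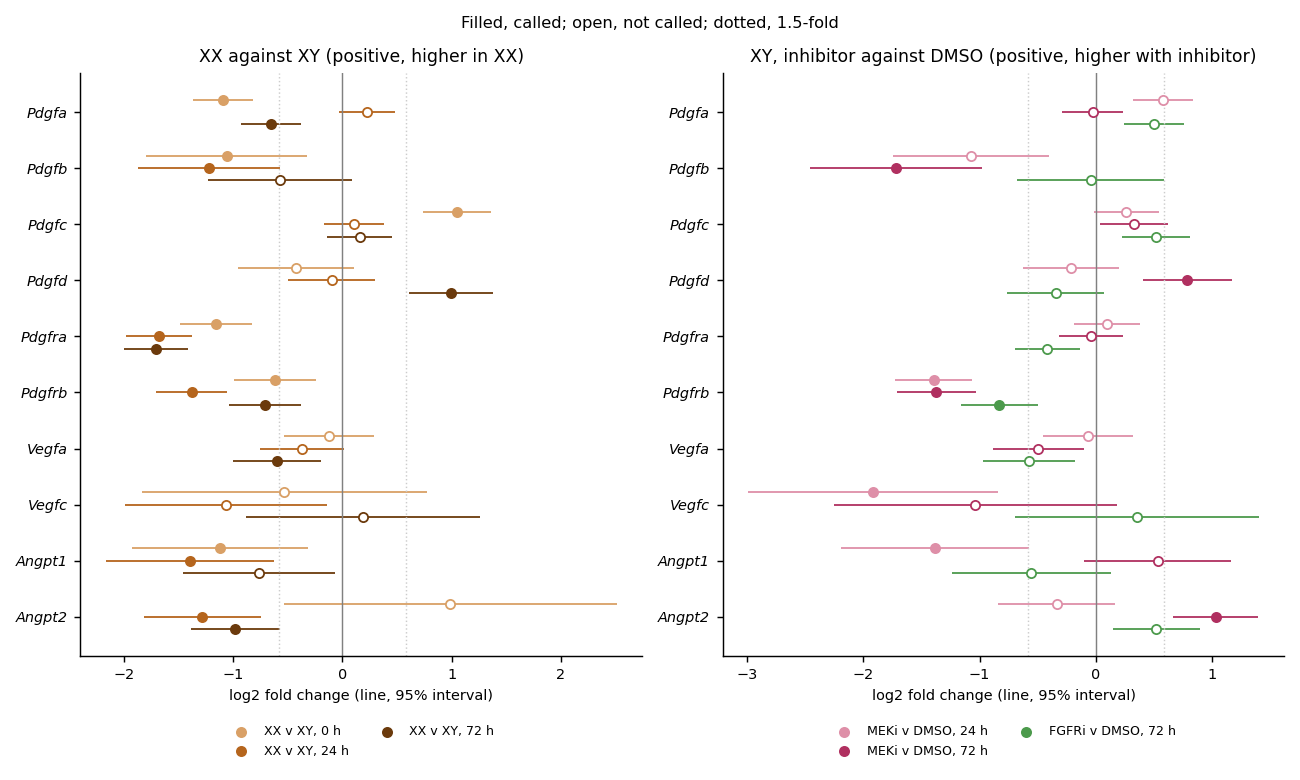
Log2 fold changes of the 10 members (rows) with 95% intervals, XX against XY at 0 h, 24 h and 72 h on the left and XY inhibitor against DMSO on the right, with filled points for called and open points for uncalled differences and dotted lines at a fold change of 1.5. On the left 5 members were called at 24 h, all with negative values (higher in XY). On the right *Pdgfrb* was called in all 3 comparisons, at −1.40, −1.37 and −0.83.

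*Pdgfa* encodes the A chain, a PDGFRα ligand that Sertoli cells are known to produce. Before culture the XX libraries had 88.4, 71.6, 57.3 and 45.6 CPM and the XY libraries 139.5, 148, 127 and 148 CPM. Every XY library lay above every XX library, and the log2 fold change, XX over XY, was −1.09 (SE 0.14, FDR 7.79e-09). On the first day the sexes moved in opposite directions: after 24 h with DMSO the XX libraries had 85.8, 117, 118 and 96.1 CPM and the XY libraries 83.4, 98.9, 92.3 and 81.7 CPM. Expression had fallen in XY cells, with a log2 fold change of −0.65 (SE 0.13, FDR 0.000137), and risen in XX cells, where the groups overlapped, with 0.66 (SE 0.14, FDR 0.00051). The change in the sex difference was 1.31 (SE 0.19, FDR 1.89e-06), the largest called among the members, and it was called under all 8 alternative settings and whichever of the 16 libraries was omitted. Without a composition factor the fall in XY cells was −0.52 and not called, where that scaling shifts the comparison by 0.13 on the log2 scale, and without library F5 of XX 0 h the rise in XX cells was 0.50 and not called. The difference between XX and XY cells at 24 h was 0.22 (95% interval −0.03 to 0.48, FDR 0.23), with overlapping groups, and was not called. The 8 Sertoli cell markers moved in the same direction as *Pdgfa* in XY cells: 6 fell during the first day and none rose (14.4% of all tested genes called), and their sum went from 1991 to 2307 to 1056 to 1585 CPM. Their part in the fall of *Pdgfa* was not tested.

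After 72 h with DMSO the *Pdgfa* values were 74.2, 69.1, 69.5 and 61.6 CPM in XX and 110.3, 112, 125 and 85.2 CPM in XY libraries. The groups did not overlap, and XX over XY was −0.65 (SE 0.14, FDR 0.000191), although without XY library M5 the value was −0.58 and under the 1.5-fold limit. The sex difference changed between 24 h and 72 h by −0.88 (SE 0.19, FDR 0.0038). With MEKi at 24 h the values were 149.6, 134, 115 and 139 CPM, all above the DMSO libraries, and the log2 fold change of 0.583 (SE 0.13, FDR 0.00288) lay just under the limit of 0.585, or 1.5-fold. It was over the limit under 3 of 8 alternatives and in 4 of the 8 fits that omitted a library (DMSO M3 or M4, MEKi M2 or M4). After 72 h with MEKi the values were 110.4, 101, 100.5 and 114 CPM, among those of DMSO, with a difference of −0.03 (95% interval −0.29 to 0.24, FDR 0.924). With FGFRi the values were 119, 83.4, 101 and 101 CPM at 24 h and 140.5, 137, 179.7 and 155 CPM at 72 h, and the rise between these times was 0.60 (SE 0.13, FDR 0.00128). At 72 h every FGFRi library lay above every DMSO library, with a log2 fold change of 0.50 (SE 0.13, FDR 0.0234) that did not reach 1.5-fold unless DMSO library M5 was omitted (0.59).

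*Pdgfb* encodes the B chain, which endothelial cells release to attract pericytes carrying PDGFRβ. Its counts were low, between 3 and 55 per library. After 24 h with DMSO the XX libraries had 4.91, 3.96, 4.84 and 3.16 CPM and the XY libraries 6.42, 11.2, 10.5 and 10.9 CPM. All XY libraries lay above the XX libraries, and XX over XY was −1.22 (SE 0.33, FDR 0.00363). Before culture XX over XY was −1.06 (SE 0.38, FDR 0.0336) with overlapping groups, a call that was lost without XX library F3 or F4 or XY library M2 or M5 and under 4 of 8 alternatives. At 72 h the difference was −0.57 (95% interval −1.23 to 0.09, FDR 0.215).

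With MEKi the *Pdgfb* values were 5.38, 4.65, 4.11 and 4.56 CPM at 24 h and 5.69, 2.29, 1.26 and 2.7 CPM at 72 h. The XY DMSO libraries at 72 h held 29, 23, 25 and 9 counts, or 9.46 ± 3.64 CPM (SD, n = 4), and on the CPM scale the lowest of them, M6, lay below the highest MEKi library, M2. The log2 fold change at 72 h was −1.72 (SE 0.38, FDR 0.00156), a 3.29-fold lower level, and was called whichever library was omitted. At 24 h every MEKi library lay below every DMSO library, but the log2 fold change of −1.07 (SE 0.34, FDR 0.0589) missed the FDR limit. It was called without DMSO library M2 (−1.22), with DESeq2 and without a composition factor. With FGFRi at 72 h the values were 7.49, 9.72, 11.1 and 7.97 CPM, the difference from DMSO was −0.04 (95% interval −0.68 to 0.59, FDR 0.976), and MEKi over FGFRi was −1.67 (SE 0.38, FDR 0.00172) with no overlap.

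*Pdgfc* encodes a PDGFRα ligand that is secreted in latent form and activated by proteolysis. The XX libraries before culture had 79, 71.1, 57.3 and 48.2 CPM and the XY libraries 24.6, 30.7, 30.6 and 37.4 CPM. XX libraries were all higher, with a log2 fold change of 1.05 (SE 0.16, FDR 4.84e-07), and *Pdgfc* was the only member higher in XX cells at 0 h by the test. After 24 h with DMSO the values were 45.2, 67.8, 70.1 and 55.3 CPM in XX and 37.4, 55.9, 62.3 and 64.5 CPM in XY libraries, which overlapped. The rise in XY cells was 0.83 (SE 0.15, FDR 4.11e-05), the change in XX cells −0.11 (95% interval −0.39 to 0.18, FDR 0.714), and the change in the sex difference −0.94 (SE 0.21, FDR 0.00213). At 72 h XX over XY was 0.16 (95% interval −0.14 to 0.46, FDR 0.481). All 4 FGFRi libraries at 72 h (58.7, 67.7, 72 and 65.8 CPM) and all 4 MEKi libraries (60.2, 63.8, 58.7 and 49.1 CPM) lay above the XY DMSO libraries (44.3, 46.2, 46.4 and 48.1 CPM). The log2 fold change was 0.52 (SE 0.15, FDR 0.042) with FGFRi, short of 1.5-fold, and 0.33 (SE 0.15, FDR 0.14) with MEKi, so neither was called.

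*Pdgfd* encodes a second latent ligand, which acts mainly through PDGFRβ. At 0 h it had 7.12 ± 1.96 CPM in XX and 9.26 ± 1.83 CPM in XY cells (SD, n = 4), and at 24 h 14.5 ± 3.24 and 15.5 ± 1.97 CPM. The rise on the first day was 1.08 (SE 0.24, FDR 0.00133) in XX and 0.75 (SE 0.23, FDR 0.0117) in XY cells, the second lost without XY 0 h library M2. Each rise was called under 6 of 8 alternatives, and neither with replicate number as a block. The sexes overlapped at both times. At 72 h they had separated: the XX libraries had 33.8, 34.8, 36.7 and 41.8 CPM and the XY libraries 21, 15.4, 20.4 and 16.7 CPM. XX over XY was 0.99 (SE 0.20, FDR 6.52e-05), the only call among the members at 72 h with XX higher, and the change in the sex difference since 24 h was 1.09 (SE 0.28, FDR 0.0209), which was lost without XX 24 h library F4 or XY 72 h library M4.

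MEKi at 72 h gave *Pdgfd* values of 25.6, 30.2, 34.9 and 37.2 CPM, each above all XY DMSO libraries and partly within the XX range. Their log2 fold change over DMSO was 0.79 (SE 0.20, FDR 0.00533) and was called whichever library was omitted. FGFRi at 72 h gave 16.1, 12.2, 14 and 16.4 CPM, with a difference from DMSO of −0.34 (95% interval −0.76 to 0.07, FDR 0.492), and MEKi over FGFRi was 1.13 (SE 0.20, FDR 6.36e-05) with no overlap. At 24 h MEKi differed from DMSO by −0.21 (95% interval −0.63 to 0.20, FDR 0.703), and the difference between the responses at 72 h and 24 h was 1.00 (SE 0.29, FDR 0.0632), which missed the FDR limit.

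*Pdgfra* encodes PDGFRα, the receptor of interstitial mesenchyme. It had the largest sex difference among the members at 24 h and 72 h. The XX libraries had 64.1, 57.4, 46.5 and 53.5 CPM before culture, 75.7, 71, 65.3 and 48.2 CPM at 24 h and 109, 68.5, 121 and 131 CPM at 72 h. The XY libraries had 108, 119, 158 and 113 CPM before culture, 191, 269.7, 211 and 163 CPM at 24 h and 361, 368, 296 and 387 CPM at 72 h. The lowest XY library lay above the highest XX library at each time. XX over XY was −1.16 (SE 0.17, FDR 1.63e-07) at 0 h, −1.68 (SE 0.15, FDR 3.35e-13) at 24 h and −1.71 (SE 0.15, FDR 1.44e-13) at 72 h, and each call held under all alternatives (8 at 0 h and 24 h, 7 at 72 h) and in all 8 fits that omitted a library. On the first day *Pdgfra* rose in XY cells by 0.75 (SE 0.15, FDR 0.000123), while in XX cells the change was 0.23 (95% interval −0.11 to 0.56, FDR 0.444). The change in the sex difference from 0 h to 24 h, −0.52 (SE 0.23, FDR 0.184), was not called.

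*Pdgfra* was called for neither inhibitor. With MEKi the values were 232, 198, 242 and 221 CPM at 24 h and 323, 359.6, 341 and 353 CPM at 72 h, overlapping DMSO at both times, and the differences were 0.10 (95% interval −0.19 to 0.38, FDR 0.825) and −0.04 (95% interval −0.31 to 0.24, FDR 0.896). With FGFRi at 72 h the values were 286, 328, 188 and 259 CPM, and the difference was −0.42 (95% interval −0.70 to −0.14, FDR 0.112). The 9 interstitial progenitor markers, among them *Tcf21*, summed to 1965 to 2209.9 CPM with MEKi and 1908 to 2232 CPM with DMSO at 24 h, and by edgeR 0 of the 8 tested were called (0 at an unadjusted p below 0.05, 0 by DESeq2). Of all tested genes 3.27% were called in this comparison. At 72 h the marker sums were 1861 to 2619 CPM with MEKi and 1948 to 2580 CPM with DMSO. Of the 8 tested, 1 rose and 1 fell with MEKi at 72 h (6.47% of all tested genes called). In XX against XY cells at 24 h, 7 of the 8 were lower in XX cells and none higher (19.6% of all tested genes called), with sums of 688 to 930.3 and 1908 to 2232 CPM. Their part in the sex difference of *Pdgfra* was not tested.

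*Pdgfrb* encodes PDGFRβ, the receptor of pericytes and vascular smooth muscle cells. It was the only member called for MEKi at both times and the only one called for FGFRi at 72 h. At 24 h the XY DMSO libraries had 159, 214, 149 and 178 CPM and the MEKi libraries 60.6, 58.5, 89.1 and 54.2 CPM. At 72 h the XY DMSO libraries had 148, 163, 161 and 119 CPM and the MEKi libraries 54.5, 54.3, 58.7 and 60.4 CPM. Every MEKi library lay below every DMSO library of the same time. The log2 fold change was −1.40 (SE 0.17, FDR 3.43e-08) at 24 h and −1.37 (SE 0.17, FDR 8.79e-08) at 72 h, 2.63-fold and 2.59-fold lower, and both calls held under all 8 alternatives and in every fit that omitted a library. The 2 responses differed by 0.02 (95% interval −0.45 to 0.50, FDR 0.986).

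FGFRi at 72 h gave *Pdgfrb* values of 92.1, 115, 45.5 and 81.4 CPM, all below DMSO, with M5 the lowest. The log2 fold change was −0.83 (SE 0.17, FDR 0.00277), and it was −0.61 to −1.04 and called in the fits that omitted a library. MEKi over FGFRi at 72 h was −0.54 (SE 0.18, FDR 0.0414) with overlapping groups and did not reach 1.5-fold, but without FGFRi library M5 it was −0.77 and called. FGFRi at 24 h gave 139.9, 134, 163 and 123 CPM, and the fall from 24 h to 72 h of FGFRi, −0.75 (SE 0.17, FDR 0.00155), was lost without the same library M5, at −0.53.

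Pericyte markers moved with *Pdgfrb*. The list, which does not contain *Pdgfrb*, held 7 genes of which 6 were tested. With MEKi 5 fell at 24 h (3.27% of all tested genes called) and 5 at 72 h (6.47% called), with none rising. Their median log2 fold changes were −1.63 and −1.34, beside −0.01 and 0.00 over all tested genes. *Rgs5*, *Abcc9* and *Kcnj8* had 14.8, 28.1 and 21.2 CPM with DMSO and 0.94, 2.53 and 7.83 CPM with MEKi at 72 h. Summed over the list, the markers had 191 to 242 CPM with DMSO and 97 to 127 CPM with MEKi at 24 h, and 196 to 274, 106 to 180.3 and 98.1 to 127 CPM with DMSO, FGFRi and MEKi at 72 h. FGFRi lowered 3 of the 6 at 72 h (1.80% of all tested genes called). The marker *Higd1b* had at most 4 counts in a library and was at 0 in every library of 5 groups: XX and XY cells at 0 h and, at 24 h, XX cells with DMSO and XY cells with MEKi or FGFRi. The part of pericyte number in the *Pdgfrb* values was not tested.

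Between the sexes *Pdgfrb* was higher in XY cells at each time. The XX libraries had 29.5, 41.5, 38 and 60.7 CPM before culture, 80.6, 59.2, 63.3 and 66 CPM at 24 h and 99.6, 78.6, 92.1 and 90.8 CPM at 72 h, and the XY libraries before culture 66.2, 55.2, 66 and 74.8 CPM. The groups overlapped at 0 h and did not at 24 h or 72 h. XX over XY was −0.61 (SE 0.19, FDR 0.0132), −1.38 (SE 0.17, FDR 1.33e-09) and −0.70 (SE 0.17, FDR 0.000845) at 0 h, 24 h and 72 h, and the call at 0 h was lost without XX library F2 or F4 or XY library M6. On the first day *Pdgfrb* rose by 1.41 (SE 0.17, FDR 5.5e-09) in XY cells, to 2.66 times the level at 0 h, and by 0.64 (SE 0.19, FDR 0.0146) in XX cells. The second call was lost without XX 0 h library F2 or F4 or 24 h library F4, and the difference between the 2 rises, −0.77 (SE 0.25, FDR 0.054), just missed the FDR limit. It was called under 4 of 8 alternatives and in 5 of the 16 fits that omitted a library (XX 0 h F2, XY 0 h M6, XX 24 h F4, or XY 24 h M2 or M4), with values of −0.92 to −0.52 over the 16.

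The pericyte markers also moved with the sex difference and with the first day. Of the 6 tested, 2 were lower and 1 was higher in XX cells at 0 h, 5 were lower at 24 h and 3 at 72 h, with median log2 fold changes of −0.64, −1.31 and −0.43. The shares of all tested genes called were 17.3%, 19.6% and 20.3%. Their sums were 68.5 to 96.1 CPM in XX and 103 to 118 CPM in XY cells at 0 h, 76.7 to 97.8 against 191 to 242 CPM at 24 h, and 131 to 162 against 196 to 274 CPM at 72 h. On the first day 4 of the 6 rose and none fell in XY cells (median 0.88, 14.4% of all tested genes called). In XX cells 2 rose and 1 fell (median 0.31, 7.73% of all tested genes called). Their part in these *Pdgfrb* differences was not tested.

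**Figure D3:**
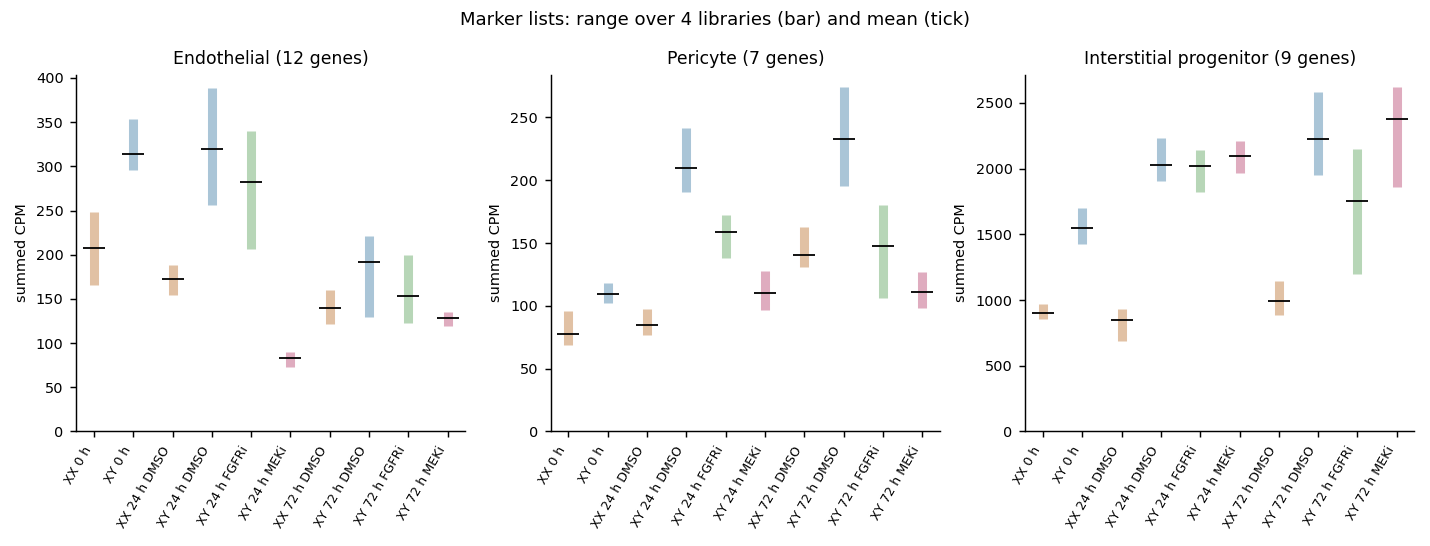
Summed CPM (y axes, starting at 0) of the endothelial (12 genes), pericyte (7) and interstitial progenitor (9) marker lists in the 10 groups, as the range over 4 libraries (bars) and the mean (ticks). Endothelial sums with MEKi at 24 h were 72.9 to 90.5 CPM against 257 to 388 CPM with DMSO, while interstitial sums overlapped.

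*Vegfa* encodes the main angiogenic VEGF, a transcript known to rise in hypoxia. It varied least among the members, between group means of 37.2 and 65.7 CPM. The sexes differed at 72 h, when the XX libraries had 37.1, 44.9, 40.5 and 52.2 CPM and the XY libraries 72, 74.6, 52.4 and 63.8 CPM. These did not overlap by a narrow margin, and XX over XY was −0.60 (SE 0.20, FDR 0.0211), a call lost without XX library F7 or F11 or XY library M2 or M4. At 0 h and 24 h the differences were −0.12 (95% interval −0.53 to 0.29, FDR 0.742) and −0.37 (95% interval −0.75 to 0.02, FDR 0.174), the second being called at −0.67 without XX library F6. The difference between 24 h and 0 h was 0.15 (95% interval −0.24 to 0.54, FDR 0.649) in XY and −0.10 (95% interval −0.51 to 0.31, FDR 0.819) in XX cells, neither called. In each sex 5 of the 7 tested hypoxia response genes fell and none rose (14.4% of all tested genes called in XY and 7.73% in XX cells).

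With MEKi at 24 h *Vegfa* differed from DMSO by −0.06 (95% interval −0.45 to 0.32, FDR 0.93), which was not called. At 72 h the MEKi libraries had 55.5, 55.8, 25.1 and 53.4 CPM, where M4 stood apart, and the difference was −0.49 (95% interval −0.89 to −0.10, FDR 0.0991). With a library omitted the value was not called and ranged from −0.60 to −0.27, the latter without M4. With FGFRi at 72 h the difference was −0.57 (95% interval −0.97 to −0.18, FDR 0.126), also not called. The FGFRi libraries at 24 h, with 38.4, 38.7, 26.4 and 45.5 CPM, all lay below DMSO libraries of the other pool (52.8, 67.9, 48.3 and 49.8 CPM), and the difference of −0.56 (95% interval −0.96 to −0.15, FDR 0.113) was not called.

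*Vegfc* encodes the lymphangiogenic ligand of VEGFR3 and was close to the detection limit, with 0 to 32 counts per library. After 24 h the XY DMSO libraries had 11, 20, 32 and 11 counts (3.92, 4.97, 6.13 and 4.28 CPM) and the MEKi libraries 3, 1, 4 and 3 counts (1.47, 0.664, 1.37 and 1.37 CPM). The groups did not overlap and the log2 fold change was −1.92 (SE 0.55, FDR 0.0292). Summed over libraries, 74 and 11 counts gave a DMSO level 4.16 times that with MEKi (exact 95% interval 2.20 to 8.70, counting error only). The call was lost without DMSO library M3 or M4 or any 1 MEKi library (M1, M2, M4, M6), with log2 fold changes of −1.77 or further from 0, and under 3 of 8 alternatives. Later, at 72 h, the MEKi libraries had 2, 3, 3 and 3 counts and the DMSO libraries 9, 4, 3 and 6 counts, a difference of −1.04 (95% interval −2.26 to 0.18, FDR 0.289).

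Before culture the XY libraries had 2, 2, 6 and 5 counts of *Vegfc*, and the rise over the first day was 1.39 (SE 0.52, FDR 0.0442) with no overlap. That call was lost without XY 0 h library M2, M3 or M6 or 24 h library M3 or M4. XX libraries had 6, 0, 0 and 5 counts before culture, and the change on the first day was 0.86 (95% interval −0.34 to 2.05, FDR 0.407). Between the sexes the groups did not overlap at 24 h, when XX libraries had 10, 9, 1 and 7 counts, but XX over XY, −1.07 (95% interval −1.99 to −0.14, FDR 0.0891), was not called. With FGFRi at 72 h the difference from DMSO was 0.36 (95% interval −0.69 to 1.41, FDR 0.838).

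*Angpt1* encodes angiopoietin 1, the TIE2 activator made by perivascular and mesenchymal cells. It had 2 to 50 counts per library. After 24 h the XY DMSO libraries had 7.84, 4.47, 8.81 and 8.17 CPM, the XX libraries 3.5, 3.47, 2.9 and 0.791 CPM and the MEKi libraries 4.4, 1.99, 2.74 and 1.82 CPM. Both of the latter groups lay below DMSO XY cells without overlap, MEKi library M1 by a narrow margin: XX over XY was −1.40 (SE 0.39, FDR 0.00475) and MEKi over DMSO −1.38 (SE 0.41, FDR 0.0408). The first held in every fit that omitted a library and under 6 of 8 alternatives. The second was lost without DMSO library M2, M4 or M5 or MEKi library M2, M4 or M6, and held under 5 of 8 alternatives. Before culture XX over XY was −1.12 (SE 0.41, FDR 0.0405) with overlap, lost without XX library F2, F3 or F4 or XY library M2 and under 6 of 8 alternatives, and at 72 h it was −0.76 (95% interval −1.46 to −0.07, FDR 0.103) without overlap and not called.

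The direction with MEKi was the opposite at 72 h. The MEKi libraries had 10.9, 18.3, 15.7 and 21 CPM, the FGFRi libraries 9.79, 10.9, 3.22 and 7.55 CPM and the DMSO libraries 13.7, 11.9, 9.47 and 9.99 CPM. MEKi over DMSO was 0.53 (95% interval −0.10 to 1.17, FDR 0.294) and not called, but the difference between the responses at 72 h and 24 h was 1.92 (SE 0.53, FDR 0.0452) and called. That call held in 3 of the 16 fits that omitted a library, whose values ran from 1.76 to 2.21: it was lost without 24 h DMSO M2, M4 or M5, 24 h MEKi M2, M4 or M6, any 72 h DMSO library (M2, M4, M5, M6), or 72 h MEKi M3, M4 or M5. MEKi over FGFRi at 72 h was 1.09 (SE 0.34, FDR 0.0287), with overlapping groups and a call lost without FGFRi library M5 or M6 or MEKi library M3, M4 or M5.

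*Angpt2* encodes angiopoietin 2, which endothelial cells release during vessel remodelling. It had the widest range among the members. Before culture it was barely detected, with 3, 9, 0 and 1 counts in the XX and 2, 1, 2 and 1 counts in the XY libraries. After 24 h with DMSO the XX libraries had 7.36, 7.18, 3.87 and 5.53 CPM and the XY libraries 13.9, 18.6, 13.2 and 14.8 CPM. In XY cells the summed counts went from 6 to 221, a ratio of 22.5 (exact 95% interval 10.2 to 61.9, counting error only), and the fitted log2 fold change was 4.26 (SE 0.46, FDR 3.07e-10). In XX cells the summed counts went from 13 to 72, a ratio of 4.27 (2.35 to 8.40), and the fitted value was 1.99 (SE 0.47, FDR 0.00189) with overlapping groups. Without XX 0 h library F3, which held 9 of the 13 counts, it was 3.19. The difference between the 2 rises was −2.27 (95% interval −3.90 to −0.64, FDR 0.0949) and not called. It was −1.07 without XX 0 h library F3 and −2.67, and called, without XX 0 h library F5, and DESeq2 and the fit without a filter on low counts called it. XX over XY was −1.28 (SE 0.27, FDR 0.000187) at 24 h and −0.98 (SE 0.21, FDR 0.000205) at 72 h, without overlap at either time and called in every fit that omitted a library. The call held under 6 of 8 alternatives at 24 h and 6 of 7 at 72 h.

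By 72 h the XX DMSO libraries had 24, 14.2, 35.2 and 31.8 CPM, the XY DMSO libraries 60.3, 45.2, 61.3 and 45.7 CPM, the FGFRi libraries 67.4, 81.4, 68 and 88.9 CPM and the MEKi libraries 71.6, 110.4, 139 and 113 CPM. All MEKi libraries lay above all DMSO libraries, and the log2 fold change was 1.03 (SE 0.19, FDR 0.000128), a 2.05-fold higher level, called whichever library was omitted. All FGFRi libraries also lay above DMSO, with 0.52 (95% interval 0.15 to 0.90, FDR 0.148), which was not called, and MEKi over FGFRi was 0.51 (95% interval 0.15 to 0.87, FDR 0.0641), called at 0.66 without MEKi library M2. With MEKi at 24 h the libraries had 10.8, 8.64, 16.8 and 10 CPM, a difference from DMSO of −0.34 (95% interval −0.84 to 0.17, FDR 0.579). The responses at 72 h and 24 h differed by 1.37 (SE 0.32, FDR 0.0132), called in all 16 fits that omitted a library and under 6 of 8 alternatives. The call was lost with voom and treat and with replicate number as a block. FGFRi at 24 h gave 35.4, 44.1, 35.5 and 40.6 CPM, a log2 fold change of 1.35 (SE 0.22, FDR 3.77e-05) over DMSO of the other library pool, and from 24 h to 72 h of FGFRi, within 1 pool, *Angpt2* rose by 0.98 (SE 0.20, FDR 0.000383).

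Of the 4792 annotated exon bases of *Angpt2*, 3387 (70.7%) also lie in annotated exons of *Mcph1*, the gene around it, and reads from these bases can be told apart only where strand is used in counting. *Mcph1* had group means of 29.3 to 39.8 CPM and log2 fold changes of −0.26 to 0.46 in the 14 comparisons, with an FDR of 0.25 or higher in each. It differed from DMSO by −0.26 with MEKi at 72 h, when *Angpt2* rose, and by −0.15 from 0 h to 24 h in XY cells.

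**Figure D4:**
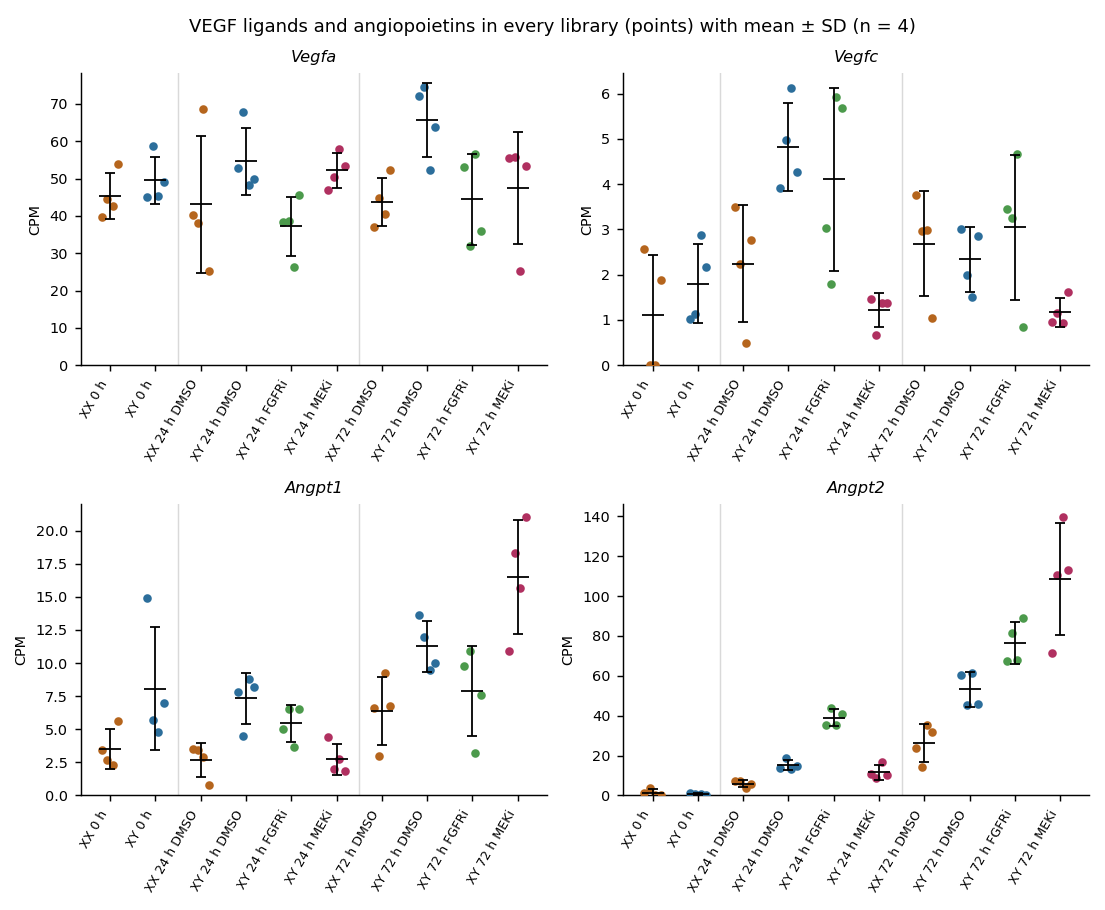
CPM of the VEGF ligand and angiopoietin genes (y axes, starting at 0) in each of the 10 groups (x axes), with a point for every library and a tick and bar for mean and SD (n = 4). *Angpt2* went from at most 3.98 CPM before culture to 71.6 to 139 CPM with MEKi at 72 h, and *Vegfc* stayed below 6.2 CPM in every library.

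Most endothelial markers moved with MEKi in the opposite direction to *Angpt2* at 72 h. Of 12 endothelial markers all 12 fell with MEKi at 24 h (median log2 fold change −2.16), and 9 fell at 72 h with none rising (median −1.90), beside medians of −0.01 and 0.00 over all tested genes. The shares of all tested genes called with MEKi were 3.27% at 24 h and 6.47% at 72 h. Their sums were 257 to 388 CPM with DMSO and 72.9 to 90.5 CPM with MEKi at 24 h, and 129.9 to 222 and 119.6 to 136 CPM at 72 h, with 0 of the 12 at 0 in any group. At 72 h these ranges overlapped. Compared with FGFRi at 72 h, 6 of the 12 were lower and 1 was higher with MEKi (6.43% of all tested genes called). The response to MEKi changed from 24 h to 72 h for 1 of the 12, upward (1.41% of all tested genes called). Of the 7 arterial markers 6 were tested and 5 fell with MEKi at each time. *Bmx* was at 0 in all MEKi libraries, and also in all XY DMSO libraries at 72 h and all XX libraries at 0 h. FGFRi at 72 h left the 12 endothelial markers at a median of −0.30, with 0 called by edgeR (2 at an unadjusted p below 0.05, 0 by DESeq2), where 1.80% of all tested genes were called. Germ cell markers were higher with MEKi at 24 h for 3 of the 5 tested, with sums of 264 to 527 against 131 to 214 CPM. At 72 h MEKi also raised 4 of 5 tested foetal Leydig cell markers, to sums of 842 to 1323 from 409 to 614 CPM, and lowered 5 of 6 tested macrophage markers, to 21 to 31.8 from 41.4 to 116 CPM. It lowered 4 of the 8 Sertoli cell markers and raised none, with a median log2 fold change of −0.63 and sums of 597 to 871 against 834 to 1398 CPM. FGFRi lowered the same number of macrophage markers, 5 of 6. The part of these cell types in the values of *Pdgfb*, *Vegfc*, *Angpt1*, *Angpt2* and *Pdgfd* was not tested. Against the sex difference, 10 of the 12 endothelial markers were higher in XY cells at 24 h, 6 at 0 h and 1 at 72 h, when 1 was higher in XX cells. The shares of all tested genes called were 19.6% at 24 h, 17.3% at 0 h and 20.3% at 72 h, so the 72 h count was not read further.

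The further ligands and receptors of the VEGF and angiopoietin pathways formed a list of 12 genes, all tested: the ligand genes *Vegfb*, *Vegfd*, *Pgf* and *Angpt4*, the VEGF receptor genes *Kdr*, *Flt1* and *Flt4* with the co-receptors *Nrp1* and *Nrp2*, and *Tek*, *Tie1* and *Ptprb* of the TIE2 complex. *Kdr*, *Tie1* and *Ptprb* are also among the endothelial markers. With MEKi at 24 h 7 fell and none rose (3.27% of all tested genes called). The log2 fold change was −3.96 (SE 0.38, FDR 7.98e-11) for *Flt1*, −3.07 (SE 0.36, FDR 1.43e-08) for *Tie1*, −2.43 (SE 0.60, FDR 0.00757) for *Tek* and −2.27 (SE 0.45, FDR 0.000603) for *Ptprb*. It was −1.55 (SE 0.21, FDR 4.19e-07) for *Kdr*, the main signalling VEGF receptor, −1.02 (SE 0.16, FDR 9.21e-06) for *Nrp1* and −0.73 (SE 0.17, FDR 0.00339) for *Pgf*. At 72 h 4 fell and none rose (6.47% of all tested genes called): *Flt1* with −3.60 (SE 0.56, FDR 7.18e-06), *Ptprb* with −2.71 (SE 0.66, FDR 0.00424), *Kdr* with −0.88 (SE 0.23, FDR 0.00874), and *Tie1*, which went from a mean of 8.01 CPM to 0.0785 CPM (FDR 2.53e-07). *Tie1*, *Ptprb* and *Flt1* were then at the detection limit with MEKi, with at most 1, 2 and 3 counts per library. With DMSO *Tie1* had 8 to 23 counts per library. *Nrp1* was not called at 72 h, with −0.36 (95% interval −0.66 to −0.07, FDR 0.106). With FGFRi at 72 h 0 of the 12 were called by edgeR (2 at an unadjusted p below 0.05, 0 by DESeq2), where 1.80% of all tested genes were called. The largest difference was −0.78 (95% interval −2.02 to 0.47, FDR 0.641) for *Tek*.

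In the sex comparisons most called genes of the list were lower in XX cells. Of all tested genes, 17.3%, 19.6% and 20.3% were called between the sexes at 0 h, 24 h and 72 h. XX cells were lower for 4 of the 12 at 0 h (*Vegfd*, *Flt1*, *Nrp2* and *Tie1*), for 7 at 24 h (*Vegfd*, *Pgf*, *Kdr*, *Flt1*, *Nrp1*, *Nrp2* and *Tie1*) and for 4 at 72 h (*Pgf*, *Flt1*, *Nrp1* and *Nrp2*), with *Ptprb* alone higher in XX cells, at 72 h. *Pgf*, which encodes placental growth factor, had 8.09 ± 1.15 CPM in XX and 43.9 ± 3.1 CPM in XY cells at 24 h (SD, n = 4), XX over XY being −2.42 (SE 0.19, FDR 1.39e-15). *Nrp1* had 50.3 ± 4.2 and 133 ± 30 CPM, with −1.40 (SE 0.16, FDR 2.77e-10). On the first day 3 of the 12 rose in XY cells and none fell (14.4% of all tested genes called): *Pgf* by 2.98 (SE 0.21, FDR 8.46e-16), *Nrp1* by 1.48 (SE 0.17, FDR 8.05e-10) and *Flt1* by 0.73 (SE 0.28, FDR 0.0494). The *Flt1* groups overlapped and its FDR lay just under the limit, while the *Pgf* and *Nrp1* groups did not overlap. In XX cells 2 were called (7.73% of all tested genes): *Pgf* rose by 1.41 (SE 0.29, FDR 0.000462) and *Kdr* fell, with −0.61 (SE 0.20, FDR 0.0313) and overlapping groups. The rises of *Pgf* and *Nrp1* were smaller in XX than in XY cells, with differences of −1.57 (SE 0.41, FDR 0.00855) and −1.37 (SE 0.24, FDR 9.06e-05).

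**Figure D5:**
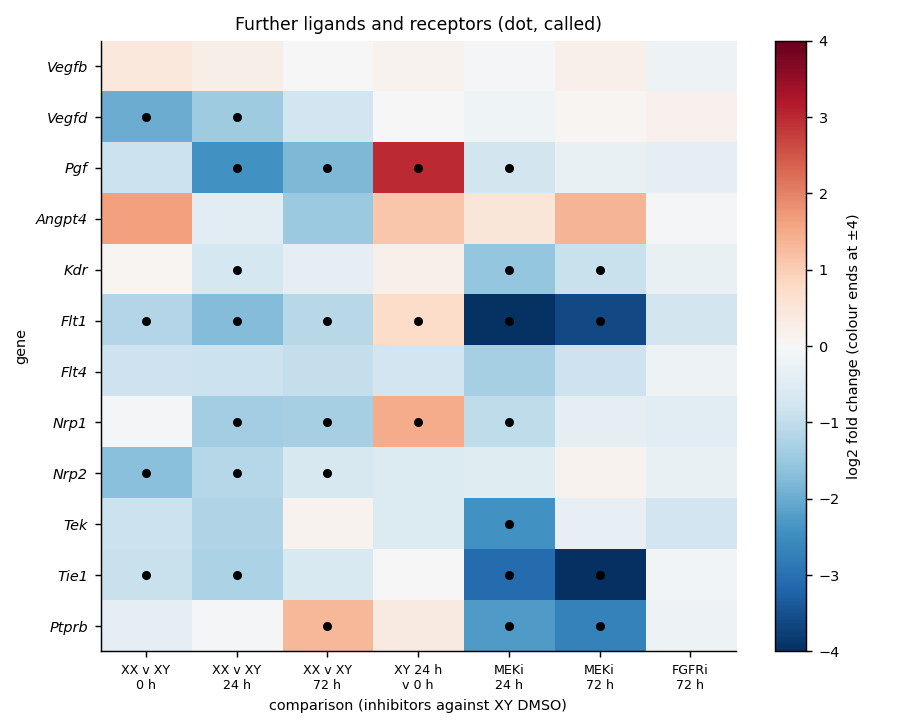
Log2 fold changes (colour, ending at ±4) of the 12 further VEGF and angiopoietin pathway genes (rows) in 7 comparisons (columns), with a dot where a gene was called. MEKi at 24 h has 7 dots, all on falls, MEKi at 72 h has 4 and FGFRi at 72 h has 0.

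The patterns of the members over the 10 group means of log2 CPM were compared with those of other genes as a description. Among members the closest pairs were *Pdgfrb* and *Vegfc* (Pearson r = 0.89), *Pdgfb* and *Vegfc* (0.81), *Pdgfb* and *Pdgfrb* (0.80), *Pdgfra* and *Angpt2* (0.78) and *Pdgfd* and *Angpt2* (0.77), and the most opposite was *Pdgfc* and *Vegfa* (−0.36). These points share 2 library pools, and values of the low genes carry counting noise. Among some 12980 genes with a mean of at least 5 CPM, the closest to *Pdgfrb* were *Plekhg2* (0.95), *Notch1* (0.95) and *Heyl* (0.94), and *Notch1* (0.96) and *Heyl* (0.92) were also closest to *Vegfc*, followed by *Smpdl3a* (0.92). Closest to *Pdgfra* by name were *Nrg1* (0.99) and *Prickle2* (0.99), after an identifier without a symbol, and to *Pdgfb* *Mcam* (0.94), a pericyte and endothelial adhesion molecule of the pericyte list, *Uaca* (0.93) and *Nup160* (0.93). *Angpt2* was followed most closely by *Zfp386* (0.98), *Dpysl3* (0.98) and *Fads2* (0.98), *Pdgfd* by *Gask1a* (0.98), *Ext2* (0.95) and *Rassf2* (0.94), and *Angpt1* by *Tor1b* (0.98), *Vamp2* (0.95) and *Kcnip3* (0.92). Closest to *Pdgfa* were *Morf4l1-ps1* (0.94), *Bcar1* (0.91) and *Fam184b* (0.90), and to *Pdgfc* *Wfdc1* (0.92), *Frem2* (0.90) and *Zswim1* (0.90). For *Vegfa* they were *Gli3* (0.89), *Plekha6* (0.87) and *Xylt2* (0.87). Each r is among the highest of some 12980 values over 10 group means, so differences between members in r were not read further.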

How the data were processed

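Somatic cells of 40 pools were sequenced with barcoded libraries in 2 library pools. The authors assigned reads to genes with scPipe and Rsubread on GRCm39 and deposited whole-number counts of transcripts per Ensembl gene and library. That molecular identifiers were collapsed was stated for the germ cell libraries of the study, and the annotation release and strand setting for these files were not given in the sources used here. Groups came from the library names in the labels. One library, 24 h MEKi M2, is named in the count table and the design text but not in the list of its pool.

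Identifiers were given symbols from GENCODE M39 (40391 of 42422 matched). Genes passing filterByExpr were fitted in edgeR 4.0.16 (R 4.3.3) with TMM scaling, 1 model of 10 group means over 40 libraries, quasi-likelihood tests and Benjamini-Hochberg adjustment. A call needed an FDR below 0.05 and a fold change of at least 1.5. Fitted fold changes carry a prior count of 0.125 and log2 CPM a prior count of 2, and 95% intervals are normal intervals from SE = |log2 fold change| / √F. The study's own approach of voom with quality weights and treat (limma 3.58.1) and DESeq2 1.42.0 were alternatives, with other scalings, filters, sample sets, a replicate block and leaving out each library. Over 60 pairs of replicate libraries, chi-square per degree of freedom was 1.96 to 8.47, so each pair differed by more than counting noise. Scripts were tested on simulated counts. All members are described, in order of role, and the 3 genes most like each were named by Pearson r. The members and gene lists were chosen with earlier results of these data known.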

Additional observations from a re-analysis of the deposited data

Results flagged for a closer look

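In 4 of the 100 groups of 4 libraries (10 members in 10 groups), 1 library stood apart from the other 3 by Dixon's test, which marks about 1 group in 20 by chance. *Pdgfb* was 6.42 CPM in XY 24 h DMSO library M2, against 10.5 to 11.2 CPM in the others. *Pdgfra* was 262.7 CPM in XY 24 h FGFRi library M5, against 202 to 208 CPM. *Vegfa* was 25.1 CPM in XY 72 h MEKi library M4, against 53.4 to 55.8 CPM, from 80 counts. *Vegfc* was 0.664 CPM in XY 24 h MEKi library M2, against 1.37 to 1.47 CPM, from 1 count.

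By the interaction terms of the edgeR model, 6 effects differed between the settings in which they were measured. The XX over XY difference changed from 0 h to 24 h by 1.31 for *Pdgfa* (FDR 1.89e-06) and by −0.94 for *Pdgfc* (FDR 0.00213) on the log2 scale. From 24 h to 72 h it changed by −0.88 for *Pdgfa* (FDR 0.0038) and by 1.09 for *Pdgfd* (FDR 0.0209). The response to MEKi changed from 24 h to 72 h by 1.92 for *Angpt1* (FDR 0.0452) and by 1.37 for *Angpt2* (FDR 0.0132). The 24 h and 72 h terms each rest on contrasts within 1 library pool, but the terms that join them span both pools.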

How the results depend on the processing

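Settings were compared over 61 pairs of a member and a comparison. A pair was included if its edgeR FDR was below 0.05, or if edgeR or an alternative called it. Under another setting 393 values stayed on their side of the threshold, 66 lost the call, 16 gained it and 0 changed direction. With 1 library omitted the numbers were 500, 61, 15 and 0. Because this choice favours large values, it says little about changes of direction. Pairs left out did change direction, as in 10 fits for the *Pdgfra* change in the sex difference from 24 h to 72 h. Voom with quality weights and treat, which tests against the 1.5-fold limit, called fewer members: 2, 2 and 1 between the sexes at 0 h, 24 h and 72 h, 2 and 0 on the first day in XY and XX cells, 1 with MEKi at 24 h and 1 at 72 h, and 0 with FGFRi at 24 h, FGFRi at 72 h, MEKi against FGFRi and FGFRi over time. For the change in the MEKi response it called 0, and for the change in the sex difference 1 on the first day and 0 later. DESeq2 called 5 members with MEKi at 24 h, and without a filter on low counts 4 were called for the change in the sex difference on the first day. The cause was not tested.

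Same-numbered libraries did not deviate together (r of −0.16 to 0.12), so numbers were not taken as pairs. With a replicate block 1 member was called with MEKi at 24 h, 1 on the first day in XX cells and 0 for the change in the MEKi response, and the other counts between inhibitors or times stayed within 1.5 times. Libraries of the 2 sexes share numbers after the letters F and M, with r of −0.12 to 0.11 over 6 pairs. A replicate block of these numbers, chosen after seeing the data, left 3 members called between the sexes at 0 h, 2 at 24 h and 2 for the change on the first day. At 72 h the sexes share only 1 number, so no block was fitted.

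With 1 library omitted, the number of members called was 3 to 6, 5 to 6 and 5 to 6 between the sexes at 0 h, 24 h and 72 h, 5 to 7 and 3 to 4 on the first day in XY and XX cells, 1 to 3 and 4 to 4 with MEKi at 24 h and 72 h, and 1 to 1 and 1 to 2 with FGFRi at 24 h and 72 h. It was 2 to 4 for MEKi against FGFRi, 1 to 3 for FGFRi over time, 1 to 2 for the change in the MEKi response, and 2 to 3 and 1 to 2 for the change in the sex difference.

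Depth limits *Pdgfb*, *Vegfc*, *Angpt1* and, before culture, *Angpt2*, which had at most 55, 32, 50 and 9 counts per library. RLE scaling moved no comparison by more than 0.013 on the log2 scale. Without a composition factor the first day in XY cells moved by 0.13 and the other comparisons by at most 0.055.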
